A study of Macaca fascicularis and Mus musculus with 492 samples.

Results

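Laminin chains and nidogens were followed cell by cell from the blastocyst to gastrulation in cynomolgus monkey, in monkey embryonic stem cells (ESCs), and in mouse embryos and cultures. The 7 genes were taken by name: LAMA1 and LAMA5 encode laminin α chains, LAMB1 and LAMB2 β chains, LAMC1 a γ chain, and NID1 and NID2 the nidogens. All 7 have a row in the monkey table (7 of 28797 genes with values) and a row of the same name in the mouse table (7 of 26219). RNA was measured by SC3-seq, in which cDNA from a single cell is amplified and the 3′ ends of its transcripts are read, and values are RPM (reads of a gene scaled to the cell's read total).

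A basement membrane is a thin sheet of matrix under epithelia. Laminin is secreted as a trimer of 1 α, 1 β and 1 γ chain, the trimers assemble into a network on the cell surface, and nidogens bind the γ chain of LAMC1 and link laminin to collagen IV. In the peri-implantation mouse embryo such a sheet lies between epiblast and visceral endoderm, and the endoderm is a known maker of it. LAMA1, LAMB1 and LAMC1 form the classical early embryonic laminin, and LAMA5 pairs with LAMB1 or LAMB2 and LAMC1 in laminins that also serve as a substrate for pluripotent stem cells.

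The monkey set held 390 embryo cells, of embryonic day 6 (E06, 43 cells), E07 (35), E08 (95), E09 (20), E13 (46), E14 (62), E16 (36) and E17 (53). Embryos up to E09 were dissociated whole, whereas later ones were first dissected by hand, so the early and late days differ in how cells were taken. The 31 ESCs were of the line CMK6 without feeder cells (9) and on mouse feeders (14), and of the line CMK9 on mouse feeders (8). The mouse set, from C57BL/6 embryos and the ESC line BVSC R8, held 25 cells of E5.5 and 24 of E6.5 embryos freed of extraembryonic ectoderm, 12 epiblast-like cells (EpiLCs) of culture day 2 and 10 ESCs in 2i and LIF, an inhibitor mix with a cytokine. At E6.5 only the proximal part of the epiblast was taken, together with visceral endoderm.

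No cell classes come with the labels used here, so they were rebuilt by clustering with the 7 genes and the other basement membrane genes left out. A class is called hypoblast-like, trophectoderm-like and so on after markers of that cell type. Hypoblast-like cells numbered 54 (10 at E07, 37 at E08 and 7 at E09), and their summed level of 8 hypoblast markers had a median of 2672 to 3198 RPM by day, against 37.2 to 60.6 RPM in epiblast-like cells of the same days. No late cluster met the name, so hypoblast was followed over E07 to E09 only. The unit of every test is 1 class on 1 day, or 1 culture, as the mean over cells of log2(RPM + 1). The labels name no embryos, so a p-value measures the spread between days or cultures, which may be technical. Recovered reads ran from 166742 to 4491539 per monkey cell (median 1879342) and from 1004103 to 4158784 per mouse cell (median 2642943), and E17 was the shallowest monkey day (median 912193).

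**Figure D1:**
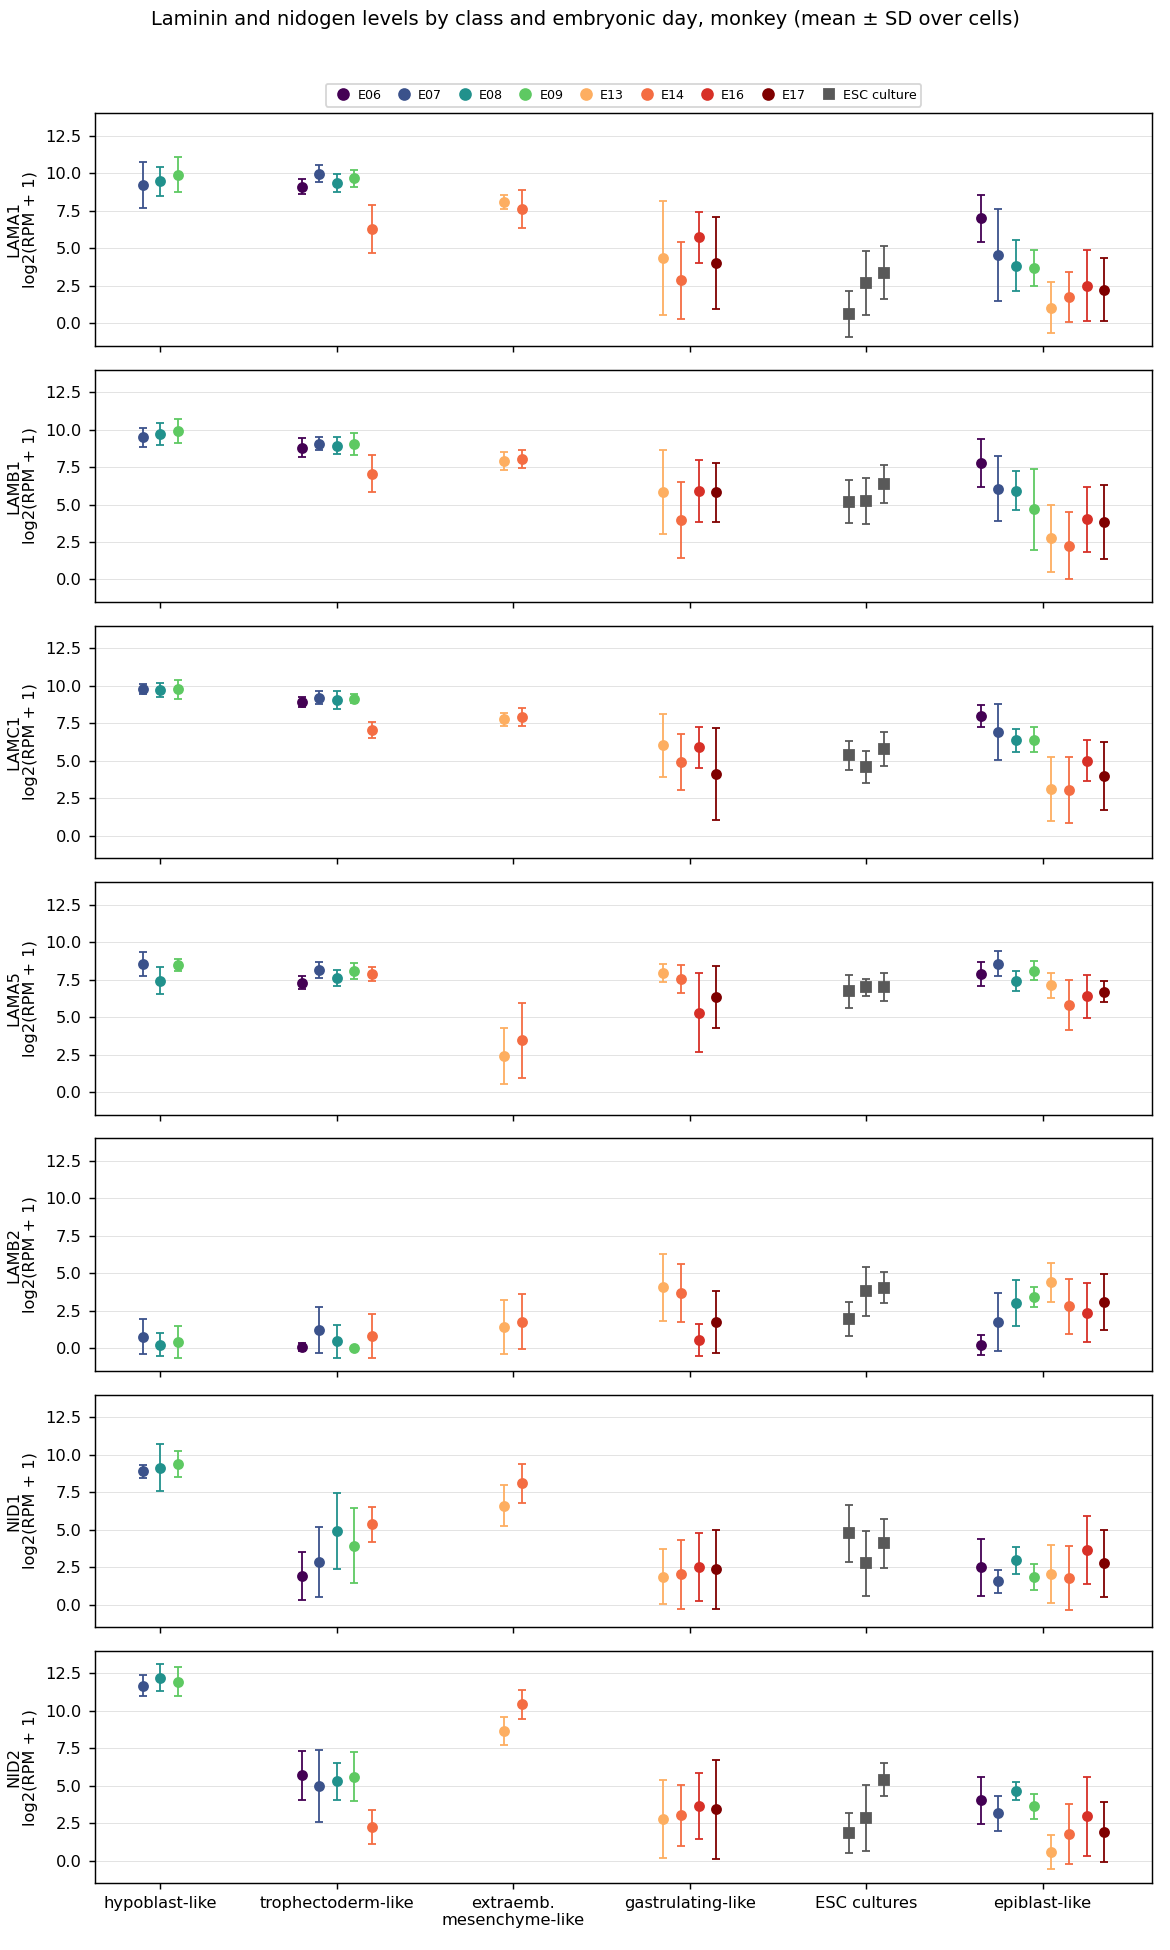
Mean log2(RPM + 1) of each of the 7 genes in every monkey class and day of at least 5 cells and in the 3 ESC cultures; points are unit means and bars the SD over cells. NID2 stands at 11.70 to 12.23 in the hypoblast-like units, LAMA1, LAMB1 and LAMC1 are high in both hypoblast-like and early trophectoderm-like units, and LAMB2 stays low throughout.

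Hypoblast-like cells carried both nidogens and all 3 chains of the classical trimer. NID2 lay between 244.3 and 13940 RPM over the 54 cells with a median of 4732, against 1.62 to 70.1 RPM with a median of 18.9 in the 35 epiblast-like cells of E07 to E09. No cell of one class reached the range of the other. NID1 lay between 4.99 and 1897 RPM (median 653.3) in hypoblast-like cells, against 0.487 to 29.5 RPM (median 4.39) in epiblast-like cells. For NID1, 53 of the 54 hypoblast-like cells were above 50 RPM, and the remaining cell fell inside the epiblast-like range.

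LAMA1 was between 41.8 and 3029 RPM (median 767.5) in hypoblast-like cells, against 1.08 to 835.3 RPM (median 11.6) in epiblast-like cells. The ranges overlapped through a few cells: 53 of 54 hypoblast-like cells and 4 of 35 epiblast-like cells were above 50 RPM. LAMB1 had medians of 834.7 RPM in hypoblast-like cells (182.0 to 2708) and 73.7 RPM in epiblast-like cells (0.697 to 761.7). LAMC1 had medians of 889.6 RPM in hypoblast-like cells (380.1 to 1648) and 93.98 RPM in epiblast-like cells (15.6 to 831.4). The epiblast-like maxima of all 3 genes were values of 1 cell of E07 that clustered with cells of E06. The other 34 epiblast-like cells reached at most 248.4 RPM of LAMA1, 179.5 RPM of LAMB1 and 266.5 RPM of LAMC1, so that in LAMB1 and LAMC1 they did not overlap the hypoblast-like cells. All 54 hypoblast-like cells were above 50 RPM in both of these genes, as were 22 of the 35 epiblast-like cells in LAMB1 and 28 in LAMC1.

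By day, the hypoblast-like means changed little against the gap to epiblast. NID2 stood at 11.70, 12.23 and 11.96 (log2) at E07, E08 and E09 in hypoblast-like cells, against 3.17, 4.67 and 3.65 in epiblast-like cells. NID1 stood at 8.90, 9.13 and 9.40 in hypoblast-like cells, against 1.55, 2.95 and 1.83 in epiblast-like cells. The difference was 8.13 for NID2 (SE 0.32, adjusted p = 8.8e-09, limma, n = 3 days each) and 7.04 for NID1 (SE 0.48, adjusted p = 4.3e-07). For both genes the lowest hypoblast-like day was above the highest epiblast-like day by far more than the spread within either class.

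LAMA1 averaged 9.53 ± 0.36 in hypoblast-like days and 4.02 ± 0.46 in epiblast-like days (SD, n = 3 each), a difference of 5.51 (SE 0.25, adjusted p = 2.6e-08, limma). For LAMB1 the means were 9.70 ± 0.22 in hypoblast-like and 5.56 ± 0.77 in epiblast-like days, a difference of 4.13 (SE 0.29, adjusted p = 5.8e-07). LAMC1 had the smallest SD over days of the 7 genes in both classes, at 9.77 ± 0.02 in hypoblast-like and 6.56 ± 0.30 in epiblast-like days, a difference of 3.21 (SE 0.17, adjusted p = 6.6e-08). Of the 6 genes of the set that passed the filter on low values, 5 were called higher in hypoblast-like cells, where 12.9% of the 10073 tested genes were called higher and 14.4% lower (27.4% in all). Their median difference was 4.82, beside -0.11 over all tested genes. Genes correlated with the set did form the classes, and NID2 itself was among the 10 leading genes of the hypoblast-like cluster although it was not used to make it.

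LAMA5 was at about the same level in the 3 blastocyst classes. It stood at 8.53, 7.44 and 8.48 (log2) at E07, E08 and E09 in hypoblast-like cells, at 7.29, 8.14, 7.63 and 8.07 at E06 to E09 in trophectoderm-like cells, and at 8.57, 7.41 and 8.09 at E07 to E09 in epiblast-like cells. The 3 sets of days overlapped throughout. Its difference between hypoblast-like and epiblast-like cells was 0.12 (SE 0.32, adjusted p = 0.82, limma) and that between hypoblast-like and trophectoderm-like cells 0.20 (SE 0.32, adjusted p = 0.74), which does not show that the levels were equal. A LAMA5 level above 50 RPM was seen in 52 of 54 hypoblast-like, 73 of 73 trophectoderm-like and 35 of 35 epiblast-like cells.

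Over E07 to E09, LAMB2 means were higher in epiblast-like cells than in the other blastocyst classes, whereas the epiblast-like cells of E06 were at 0.24. It had no read in 45 of 54 hypoblast-like cells and in 58 of 73 trophectoderm-like cells, against 5 of 35 epiblast-like cells of E07 to E09. Mean levels by day were 0.78, 0.24 and 0.40 (log2) at E07, E08 and E09 in hypoblast-like cells, and 1.75, 3.02 and 3.41 in epiblast-like cells. The ranges of days were apart, but LAMB2 did not pass the filter on low values in this fit and was not tested. At E09 none of the 8 trophectoderm-like cells had a read of LAMB2, which allows a share of cells with a read of up to 37.5%.

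Trophectoderm-like cells, named for the layer that goes on to form the placenta, had LAMA1 in the range of hypoblast-like cells and far less nidogen. LAMA1 lay between 280.3 and 2170 RPM (median 729.5) in the 73 trophectoderm-like cells of E06 to E09, all above 50 RPM. Its mean by day was 9.10, 9.96, 9.35 and 9.65 (log2), inside the range of the hypoblast-like days (9.21, 9.46 and 9.92) apart from E06 and E07. NID2 had a median of 38.6 RPM in trophectoderm-like cells (0.912 to 729.9), and NID1 a median of 12.4 RPM (0 to 734.7), so that a minority of cells, 29 and 16 of 73, passed 50 RPM.

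Between hypoblast-like and trophectoderm-like days of E07 to E09, NID2 differed by 6.65 (SE 0.32, adjusted p = 4.1e-08, limma, n = 3 each) and NID1 by 5.25 (SE 0.48, adjusted p = 6.3e-06). LAMA1 differed by -0.13 (SE 0.25, adjusted p = 0.80), with a sign that turned with edgeR on recovered reads, the logarithm of mean RPM and equal cell numbers. LAMB1 differed by 0.68 (SE 0.29, adjusted p = 0.14), with days that did not overlap. LAMC1 was called higher in hypoblast-like cells by 0.63 (SE 0.17, adjusted p = 0.020), a call lost with edgeR (adjusted p = 0.28) and DESeq2 (adjusted p = 0.25) on the recovered reads and, at adjusted p of 0.051 to 0.072, without any 1 of the hypoblast-like E07, E08 or E09 or trophectoderm-like E08 or E09 units. Within the cells of 1 title code, MS03, it was 0.66 (adjusted p = 0.14), which is not a smaller difference. That fit held units of E07 and E09 only, and its epiblast-like E07 unit had 4 cells. Of the 6 tested genes, 3 were called higher, where 8.59% of all tested genes were called higher and 7.54% lower (16.1% in all), and their median difference was 0.66, beside -0.02 over all tested genes.

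Against epiblast-like cells of the same days, trophectoderm-like cells were higher in 5 of the 6 tested genes, where 11.4% of all tested genes were called higher and 12.9% lower (24.3% in all). LAMA1 averaged 9.65 ± 0.30 in trophectoderm-like and 4.02 ± 0.46 in epiblast-like days (SD, n = 3 each), a difference of 5.63 (SE 0.25, adjusted p = 1.9e-08, limma). LAMB1 differed by 3.45 (SE 0.29, adjusted p = 3.2e-06) and LAMC1 by 2.57 (SE 0.17, adjusted p = 5.2e-07). The nidogen differences were smaller: 1.79 for NID1 (SE 0.48, adjusted p = 0.014) and 1.48 for NID2 (SE 0.32, adjusted p = 0.0037). For NID1 the days overlapped, with 2.83, 4.92 and 3.93 in trophectoderm-like and 1.55, 2.95 and 1.83 in epiblast-like cells, and the call was lost without the trophectoderm-like E08 unit (adjusted p = 0.069) or the epiblast-like E07 unit (adjusted p = 0.051). Summed hypoblast markers had medians of 287.0 to 583.2 RPM by day in these trophectoderm-like cells, against 37.2 to 60.6 RPM in epiblast-like cells, with GATA6 higher by 5.51 (adjusted p = 3.8e-07). The part of that in the laminin difference was not tested.

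**Figure D2:**
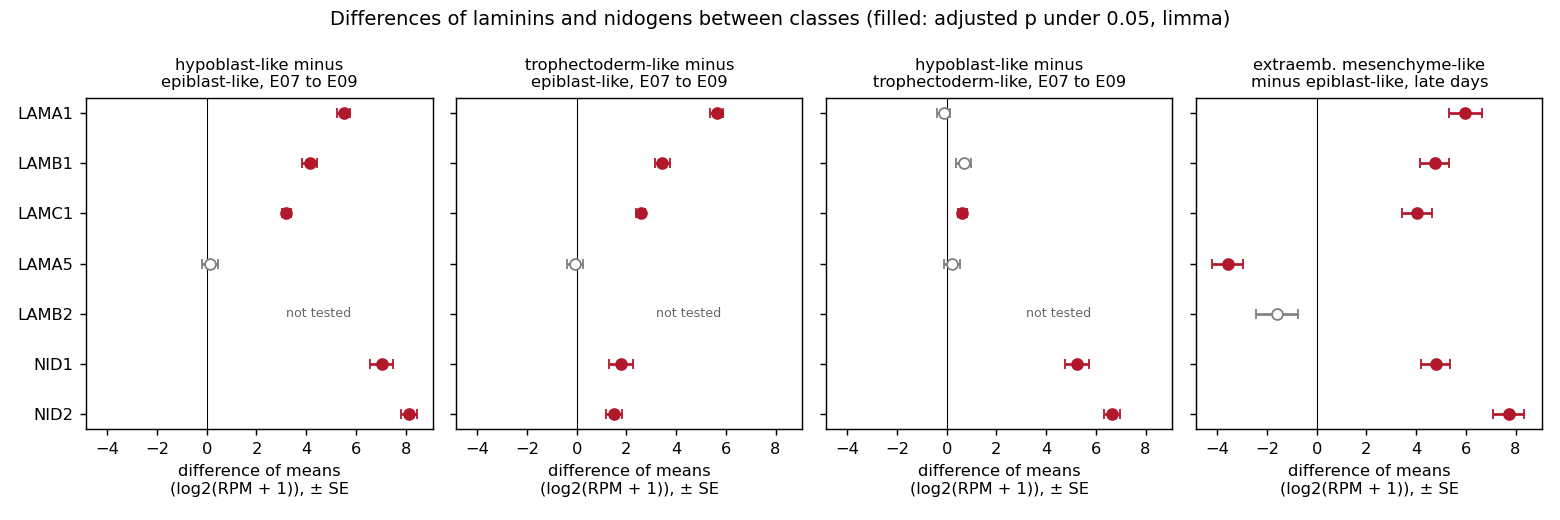
Differences in log2(RPM + 1) with their SE for the genes in 4 comparisons of monkey classes; filled points passed an adjusted p of 0.05 (limma). The nidogens lie near 5 to 8 wherever the first class is hypoblast-like or extraembryonic-mesenchyme-like. LAMA1 lies near 0 between hypoblast-like and trophectoderm-like cells.

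Within a class, the genes varied together to different degrees. Over the 54 hypoblast-like cells, Pearson's r of log2 levels was 0.72 between NID1 and NID2, 0.66 between LAMC1 and NID1 and 0.57 between LAMA1 and LAMB1. LAMA1 and LAMA5 had r = -0.03 in the same cells. Over the 73 trophectoderm-like cells, r was 0.53 between LAMA1 and LAMC1, but 0.05 between NID1 and NID2 and -0.08 between LAMA1 and NID2. These are descriptions over cells that share days, libraries and depth. Over the 25 monkey units, LAMB1 and LAMC1 had r = 0.96, LAMA1 and LAMB1 r = 0.94, and LAMA1 and LAMB2 r = -0.80.

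**Figure D3:**
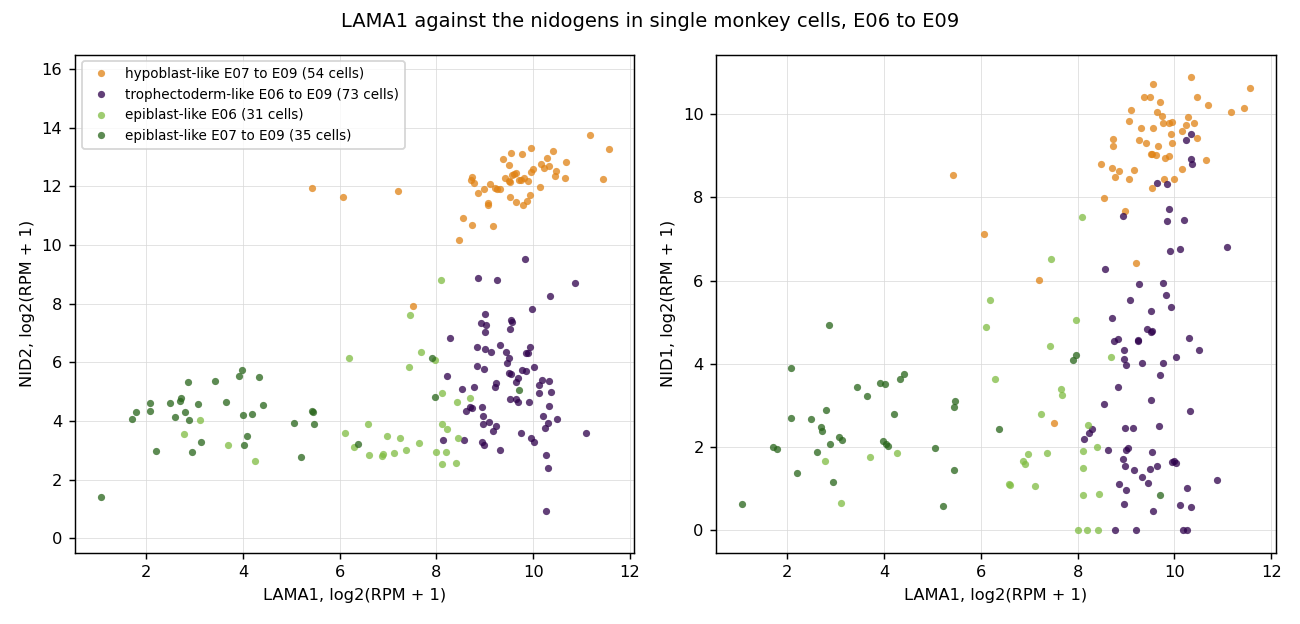
LAMA1 (x axis) against NID2 and NID1 (y axes), all in log2(RPM + 1), in single monkey cells of E06 to E09; each point is 1 cell. Hypoblast-like and trophectoderm-like cells share the high LAMA1 range, with medians of 767.5 and 729.5 RPM, and part on NID2, with medians of 4732 and 38.6 RPM.

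The E06 cells called epiblast-like held more of the trimer than the epiblast-like cells of later days. Their cluster, of these 31 cells and 1 cell of E07, had 4 of 8 epiblast markers, the least that gave the name, and the 31 cells had a median summed hypoblast marker level of 460.7 RPM. LAMA1 ran from 5.89 to 414.1 RPM in them (median 171.0), with 27 of 31 cells above 50 RPM. LAMB1 had a median of 237.7 RPM and LAMC1 of 280.5 RPM, with 28 and 31 of 31 cells above 50 RPM. The nidogens did not go with them: 2 cells of NID1 and 6 of NID2 were above 50 RPM. LAMB2 had no read in 27 of the 31 cells. E06 is a single unit and was in no test.

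In epiblast-like cells, 5 of the 7 genes fell between the early days (E07 to E09) and the late days (E13 to E17), where 24% of the 9895 tested genes were called lower and 13.7% higher (37.7% in all). LAMA1 stood at 1.05, 1.75, 2.49 and 2.24 (log2) at E13, E14, E16 and E17, against 4.54, 3.83 and 3.68 at E07, E08 and E09. The early cells were of 1 cluster apart from 1 cell, those of E13 and E14 of another and those of E16 and E17 of yet another, so different clusters hold the class on the early and late days. All late days were below all early days, and in late cells the median was 1.41 RPM, with 37 of 106 cells without a read. The difference was -2.14 (SE 0.43, adjusted p = 0.0022, limma, n = 4 against 3).

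LAMC1 stood at 3.11, 3.06, 5.01 and 3.98 on the late days, against 6.91, 6.36 and 6.41 on the early days, a difference of -2.77 (SE 0.44, adjusted p = 4.7e-04). LAMB1 differed by -2.34 (SE 0.50, adjusted p = 0.0030) and LAMA5 by -1.53 (SE 0.32, adjusted p = 0.0030). LAMA5 was still above 50 RPM in 92 of 106 late epiblast-like cells, against 35 of 35 early ones, the highest such count of the 7 genes in late epiblast. NID2 differed by -2.01 (SE 0.54, adjusted p = 0.012), a call lost with edgeR on the recovered reads (-0.01, adjusted p = 0.99), from the logarithm of mean RPM (-0.53, adjusted p = 0.66) and without E08 (adjusted p = 0.067).

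LAMB2 and NID1 did not pass the test between early and late epiblast. LAMB2 averaged 3.18 ± 0.86 on late days and 2.73 ± 0.87 on early days (SD, n = 4 and 3), a difference of 0.45 (SE 0.54, adjusted p = 0.53, limma). NID1 averaged 2.55 ± 0.83 on late and 2.11 ± 0.74 on early days. Its difference of 0.44 (SE 0.50, adjusted p = 0.51) was called higher by edgeR (1.72, adjusted p = 0.046), by DESeq2 (1.73, adjusted p = 0.012) and from the logarithm of mean RPM (1.55, adjusted p = 0.031). The median difference of the 7 genes was -2.01, beside -0.25 over all tested genes, which was -0.01 after quantile normalization. Quantile normalization gave 1810 genes higher and 1691 lower, in place of 1359 and 2373.

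Other measures moved with the early and late days. Summed hypoblast markers had medians of 3.45 to 28.5 RPM by late day and 37.2 to 60.6 RPM by early day in epiblast-like cells, with HNF4A changed by -3.98 and GATA6 by -2.01, and their part in the fall was not tested. Within the cells of 1 title code, MS08, whose meaning the labels do not give, the late units were E14 and E16 and the early unit was E07 with 2 cells. There LAMC1 differed by -3.07, LAMA5 by -2.76 and LAMB1 by -2.33, but LAMA1 by -0.01 and NID2 by -0.08, with no test.

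**Figure D4:**
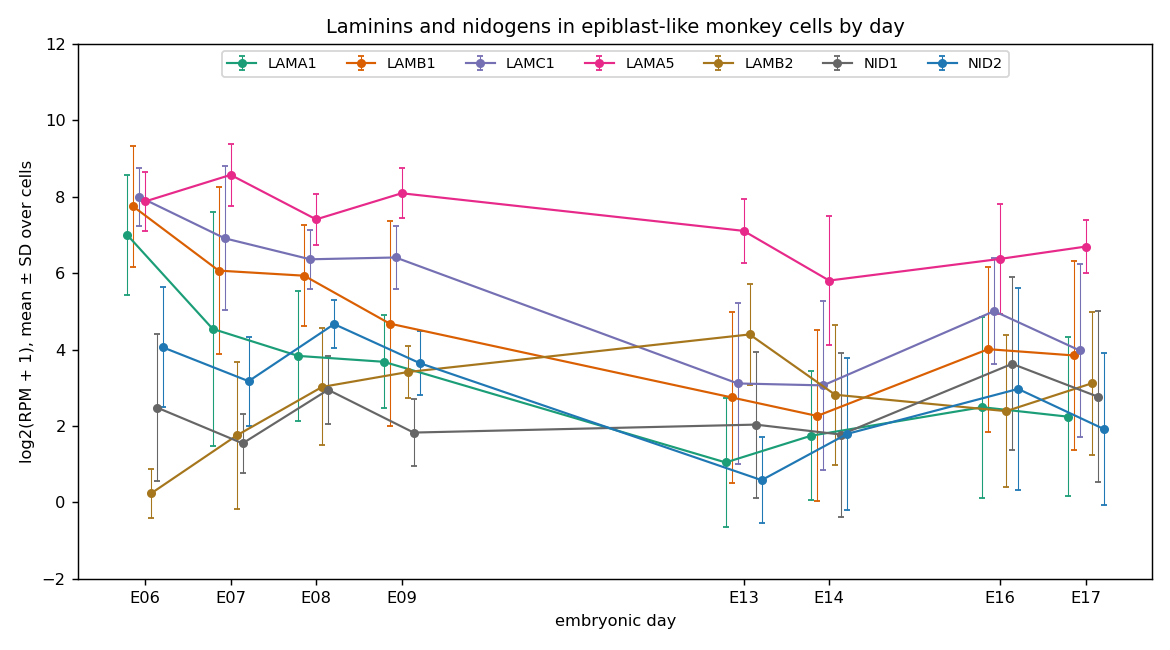
Mean log2(RPM + 1) of the genes in epiblast-like cells from E06 to E17 (x axis, embryonic day), with points for days and bars for the SD over cells. LAMA1 is at 7.0 at E06, at 3.68 to 4.54 over E07 to E09 and at 1.05 to 2.49 over E13 to E17, whereas LAMA5 stays at 5.81 or above.

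Among the late classes, LAMA1, LAMB1, LAMC1, NID1 and NID2 had their highest unit means in extraembryonic-mesenchyme-like cells of E13 and E14, which are named for a tissue of the yolk sac and amnion wall. NID2 lay between 135.9 and 3676 RPM (median 583.8) in these 30 cells, against a median of 1.23 RPM in the 106 late epiblast-like cells, 41 of which had no read. LAMA1 had a median of 246.2 RPM (17.0 to 613.0) in extraembryonic-mesenchyme-like cells, with 29 of 30 above 50 RPM, against 3 of 106 late epiblast-like cells. Day means were 8.63 and 10.45 (log2) for NID2, 6.60 and 8.09 for NID1 and 8.09 and 7.63 for LAMA1 at E13 and E14.

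Against late epiblast-like days (n = 2 and 4), the difference was 7.72 for NID2 (SE 0.64, adjusted p = 1.9e-06, limma), 5.98 for LAMA1 (SE 0.65, adjusted p = 2.2e-05), 4.79 for NID1 (SE 0.58), 4.75 for LAMB1 (SE 0.60) and 4.05 for LAMC1 (SE 0.60, adjusted p = 2.4e-04). LAMA5 went the other way. It had a median of 8.61 RPM in extraembryonic-mesenchyme-like cells, with 3 of 30 above 50 RPM, against 105.6 RPM in late epiblast-like cells, and differed by -3.59 (SE 0.62, adjusted p = 8.8e-04). LAMB2 differed by -1.58 (adjusted p = 0.20), and by -2.48 with the embryonic day as a block (adjusted p = 0.011). So 5 genes were higher and 1 lower of the 7 tested, where 10.7% of the 10860 tested genes were called higher and 12.6% lower (23.4% in all). LAMA2, the α chain best known from muscle and mesenchyme and the only tested chain outside the set, was higher by 5.01 (adjusted p = 7.6e-05).

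Markers of yolk sac endoderm did not go with these levels: their summed level had a median of 12.3 and 16.3 RPM at E13 and E14 in extraembryonic-mesenchyme-like cells, against 16.4 to 33.9 RPM by day in late epiblast-like cells. Summed hypoblast markers were at 937.9 and 822.1 RPM, against 3.45 to 28.5 RPM in late epiblast-like cells.

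Gastrulating-like cells of E13 to E17, which carry primitive streak genes, had higher LAMA1 and LAMB1 than epiblast-like cells. LAMA1 stood at 4.35, 2.87, 5.72 and 4.02 (log2) at E13, E14, E16 and E17, against 1.05, 1.75, 2.49 and 2.24 in epiblast-like cells of the same days. LAMB1 stood at 5.83, 4.00, 5.91 and 5.81, against 2.75, 2.26, 4.01 and 3.85 in epiblast-like cells. Each day's gastrulating-like mean was above the epiblast-like mean of that day for both genes. LAMA1 differed by 2.36 (SE 0.54, adjusted p = 0.033, limma, n = 4 days each) and LAMB1 by 2.17 (SE 0.49, adjusted p = 0.031), 2 of 7 tested genes, where 1.19% of the 9715 tested genes were called higher and 1.36% lower (2.55% in all).

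Both calls were lost without a few cells that carried hypoblast markers, and without single units. Of the 197 cells of E13 to E17, 10 had at least 6 of the 8 hypoblast markers at a log2 level of 4 or more, 8 of them gastrulating-like and 2 epiblast-like, while 53 of the 54 hypoblast-like cells met the same rule. In those 10 cells LAMA1 had a median of 144.1 RPM and LAMB1 of 301.1 RPM, against 17.3 and 27.97 RPM in the other 40 gastrulating-like cells and 1.29 and 11.9 RPM in the other 104 late epiblast-like cells. NID2 was at a median of 42.7 RPM in the 10 cells, far from the 4732 RPM of the hypoblast-like cells. Without the 10 cells LAMA1 differed by 1.75 (adjusted p = 0.27) and LAMB1 by 1.53 (adjusted p = 0.20), and 105 genes were called in all, in place of 248. This leaving out was chosen after the data had been seen, and it left the gastrulating-like E13 unit with 4 cells. Leaving out 1 unit at a time gave 1.87 to 2.82 for LAMA1 (adjusted p up to 0.10) and 1.85 to 2.63 for LAMB1 (adjusted p up to 0.11), and both calls were lost without epiblast-like E13 or E14 or gastrulating-like E13, E16 or E17. LAMC1 differed by 1.45 (SE 0.49, adjusted p = 0.16) and was called by edgeR (2.02, adjusted p = 0.049) and DESeq2 (2.02, adjusted p = 2.9e-04). With the day as a block, NID2 was also called (1.41, adjusted p = 0.042), and 664 genes were called in all.

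The gastrulating-like class held a later and an earlier cluster. The 31 cells of the cluster mostly of E16 and E17 had medians of 58.03 RPM for LAMA1, 90.2 RPM for LAMA5 and 0 RPM for LAMB2. The 17 cells of the other cluster, all of E13 and E14, had medians of 5.81 RPM for LAMA1, 232.2 RPM for LAMA5 and 29.6 RPM for LAMB2. Every gastrulating-like cell among the 10 late cells with hypoblast markers was in the later cluster. Those 10 cells had a LAMA1 median of 144.1 RPM, and their part in the gap between the clusters was not tested. Whether the difference from epiblast changed between E16 and E17 and E13 and E14 was tested in 1 fit. LAMA5 gave -0.72 at E16 and E17 and 1.29 at E13 and E14, a change of -2.01 (SE 0.63, unadjusted p = 0.0071, adjusted p = 0.32), the only one of the 7 with an unadjusted p under 0.05. No gene of the set passed with limma, where 0.0956% of 10462 genes did, and no other tool was run on this change.

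Trophectoderm-like cells of E14 (9 cells, 1 unit, no test) had lower laminin means than those of E06 to E09, with LAMA1 at 6.31, LAMB1 at 7.05 and LAMC1 at 7.03 (log2). LAMA5 stood at 7.88, inside the early range of 7.29 to 8.14. NID2 was at 2.26, below its early range of 5.00 to 5.72, and NID1 at 5.36, above its early range of 1.89 to 4.92. Every one of the 9 cells had LAMC1 and LAMA5 above 50 RPM.

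Monkey ESCs were set against late epiblast-like days. LAMB1 stood at 5.18, 5.24 and 6.38 (log2) in CMK6 without feeders, CMK6 on feeders and CMK9 on feeders, against 2.75, 2.26, 4.01 and 3.85 at E13, E14, E16 and E17. All cultures were above all days, with a difference of 2.39 (SE 0.49, adjusted p = 0.018, limma, n = 3 against 4). That was 1 gene called of 7, where 7.14% of the 9880 tested genes were called higher and 1.52% lower (8.65% in all), and the call was lost without CMK9 (2.00, adjusted p = 0.072) and with edgeR. LAMC1 differed by 1.46 (SE 0.50, adjusted p = 0.090), and without epiblast-like E16 by 1.87 (adjusted p = 0.035), while NID2 differed by 1.56 (SE 0.77, adjusted p = 0.22) and NID1 by 1.32 (SE 0.57, adjusted p = 0.16). After quantile normalization 237 genes were called higher and 192 lower, in place of 705 and 150, and the median over all tested genes was -0.02 in place of 0.28.

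LAMA5 stood at 6.71, 6.98 and 7.0 in the 3 cultures and was above 50 RPM in 28 of 31 ESCs, against 16 for LAMB1 and 11 for LAMC1, which also had reads in all 31 cells. It differed from late epiblast by 0.40 (SE 0.29, adjusted p = 0.40). LAMA1 was low, at 0.61 without feeders and 2.67 with feeders in CMK6 and 3.38 in CMK9, with 1 of 31 cells above 50 RPM. NID1 stood at 4.75 without feeders and 2.75 with feeders in CMK6, and NID2 at 1.86 without and 2.86 with feeders, against 5.42 in CMK9. Each culture is 1 sample, so differences among cultures were not tested. The summed level of 7 fibroblast markers had medians of 428.4, 762.5 and 516.1 RPM in CMK6 without feeders, CMK6 on feeders and CMK9, against 103.4 to 367.5 RPM by day in late epiblast. Of these markers, COL3A1, LUM, DCN and POSTN had no read in the median cell of either culture on feeders. DCN and POSTN had none in CMK6 without feeders, and LUM, DCN and POSTN none in epiblast-like E13, E14 and E17. The part of fibroblast RNA in the result was not tested.

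Other matrix genes moved with the set in part, and a gene is called higher or lower here where its adjusted p was under 0.05 (limma). Their counts stand beside the share of all tested genes called in the same comparison. In hypoblast-like against epiblast-like cells, 4 of 8 tested other basement membrane genes were higher and 2 lower, where 12.9% of all tested genes were higher and 14.4% lower. COL4A1 and COL4A2, the chains of the main collagen IV, were higher by 7.15 and 6.24, COL18A1 by 2.43, and PXDN, the peroxidasin that cross-links collagen IV, was lower (-3.37). Of 15 genes for matrix protein folding and secretion, 8 were higher and 1 lower, with the largest differences in the collagen chaperone SERPINH1 (3.87) and the prolyl hydroxylase subunit P4HA1 (2.53). Of 6 laminin receptors, 2 were higher and 1 lower: SDC4 by 1.69, the integrin β1 chain ITGB1 by 0.61 and dystroglycan (DAG1) by -0.70. Of 5 turnover genes, TIMP1 (2.00) and CTSL (0.78) were higher, and MMP9 (-3.74) and TIMP2 (-1.72) lower. All 7 tested endoderm regulators were higher, and 7 of that list's 8 genes were also markers that named the class.

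In trophectoderm-like against epiblast-like cells, 11.4% of all tested genes were higher and 12.9% lower. Of the 8 other basement membrane genes, 1 was higher (COL18A1, 3.30) and 2 lower (SPARC, -5.70, and PXDN, -5.64), and of the 15 folding genes 1 was higher and 3 lower, with SERPINH1 at -3.28, and the folding genes' counts are close to the shares over all genes. Hypoblast-like against trophectoderm-like cells had 4 of 8 other basement membrane genes higher, namely SPARC (6.48), COL4A1 (6.24), COL4A2 (5.14) and PXDN (2.27), and 10 of 15 folding genes higher, with SERPINH1 at 7.15, where 8.59% of all tested genes were higher. Of the 6 tested laminin receptors, ITGA6 (1.37) and ITGB1 (0.85) were higher and DAG1 (-1.79) lower in hypoblast-like cells, and SDC4 (1.33) and DAG1 (1.09) were higher and ITGA6 (-1.29) and ITGA2 (-1.19) lower in trophectoderm-like than in epiblast-like cells. The 3 contrasts share classes and are not independent of each other.

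In late against early epiblast, 5 of 9 other basement membrane genes rose while 5 of the 7 laminins and nidogens fell, where 13.7% of all tested genes rose and 24% fell. FRAS1, of the Fraser complex, rose by 4.43, COL18A1 by 2.17 and COL4A1 by 1.86, and SPARC, a collagen-binding matrix protein, changed by -2.18. Among 8 receptors, ITGA7 (3.95) and SDC1 (3.77) rose, and SDC4 (-1.47) and DAG1 (-0.76) fell, counts close to those shares. FRAS1, ITGA7 and SDC1 did not pass the filter on low values in the fit of E07 to E09. They were tested here only with the help of the late units where they are high, which favours a rise. In extraembryonic-mesenchyme-like against epiblast-like cells, 8 of 14 other basement membrane genes were higher and 2 lower, with EGFLAM (8.24), COL4A1 (6.28) and COL4A2 (5.31) higher and FRAS1 (-4.15) lower, and 12 of 15 folding genes were higher, where 10.7% of all tested genes were higher and 12.6% lower. Laminin-binding integrin chains were among the receptors that differed there: ITGA1 was higher by 7.02, and ITGA7 (-5.51) and ITGA6 (-5.14) lower. ITGA1, and COL4A6 among the 8, did not pass the filter in the gastrulating-like comparison of the same units, which asks for more units. Their entry here can thus rest on the extraembryonic-mesenchyme-like units alone, where they are high. In ESCs against late epiblast, 2 of 11 other basement membrane genes were higher, FBLN2 (1.45) and SPARC (1.24), where 7.14% of all tested genes were. In gastrulating-like against epiblast-like cells, FREM2 (1.90) was the 1 of 13 other basement membrane genes called higher, and 3 of 5 endoderm regulators were higher, namely GATA6 (4.55), GATA4 (4.41) and SOX17 (3.05), where 1.19% of all tested genes were.

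The genes whose pattern over the 25 monkey units was most like the mean of LAMA1, LAMB1 and LAMC1, among 7772 genes, were FOLR1 (r = 0.96), a folate receptor, TMCO1 (0.95), a calcium channel of the endoplasmic reticulum, AHNAK (0.95) and the annexin partner S100A10 (0.95). ALG14, ANXA6, IMPAD1, ATP1B1, RPS6KA3 and LOC102136510 followed with r of 0.92 to 0.94.

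In mouse, the genes were read in visceral-endoderm-like and epiblast-like cells of E5.5 and E6.5 (14 and 25 cells). The 9 epiblast-like cells of E6.5, 1 of the 2 epiblast-like units of each mouse test, form a cluster with 4 of 8 epiblast markers, the least that gives the name, and immunoglobulin genes (Igkc, Ighm, Igl) lead it. With more than 50% of the markers required, it loses the name. All 7 are annotated as protein-coding in GENCODE on the build mm10. Lama1 lies on chromosome 17 (67697259 to 67822647, plus strand), Lamb1 on chromosome 12 (31265234 to 31329644, plus) and Lamc1 on chromosome 1 (153218922 to 153332786, minus). Lama5 lies on chromosome 2 (180176373 to 180225859, minus), Lamb2 on chromosome 9 (108479736 to 108490530, plus), Nid1 on chromosome 13 (13437551 to 13512269, plus) and Nid2 on chromosome 14 (19751265 to 19811787, plus).

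Nid1 lay between 4.90 and 411.5 RPM (median 93.8) in visceral-endoderm-like cells, against 0 to 12.8 RPM (median 0.506) in epiblast-like cells. Its means were 6.69 and 6.04 (log2) at E5.5 and E6.5 in visceral-endoderm-like cells, against 0.92 and 0.79 in epiblast-like cells. The difference was 5.51 (SE 0.89, adjusted p = 0.020, limma, n = 2 days each). Lamc1 lay between 120.7 and 1168 RPM (median 262.7) in visceral-endoderm-like cells, all above the epiblast-like maximum of 106.8 RPM. It averaged 8.44 ± 1.09 in visceral-endoderm-like and 4.68 ± 0.37 in epiblast-like days (SD, n = 2 each), a difference of 3.75 (SE 0.61, adjusted p = 0.020), which was 2.98 and not called without the visceral-endoderm-like E6.5 unit (adjusted p = 0.071) and not called by edgeR (adjusted p = 0.074).

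Of the 5 genes tested in mouse, these 2 were called, where 1.86% of the 9269 tested genes were called higher and 0.593% lower (2.45% in all). Nid1 passed the filter on low values only through its visceral-endoderm-like units, because both of its epiblast-like units were under the floor of 2. Nid2 differed by 3.01 (SE 0.67, adjusted p = 0.058), Lamb1 by 2.35 (SE 0.64, adjusted p = 0.10) and Lama5 by 2.18 (SE 0.78, adjusted p = 0.21). Without the epiblast-like E5.5 unit all 5 were called (Nid2 3.41, Lamb1 3.20 and Lama5 3.39), but the epiblast is then the 9 cells of E6.5 alone, assumed to vary like the other units. With the day as a block, all 5 were called (adjusted p = 0.0049 for Nid2, 0.0041 for Lamb1 and 0.016 for Lama5), together with 1351 genes in all, in place of 227. Quantile normalization gave 299 genes higher and 164 lower, in place of 172 and 55. Of 9 other basement membrane genes 3 were higher: Col4a2 (7.30), Col4a1 (6.23) and Pxdn (3.27). Col4a2 too passed the filter only through its visceral-endoderm-like units, with epiblast-like means of 0.95 and 1.08. Of 12 folding genes P4ha1 (3.92) was higher and of 4 turnover genes Ctsl (4.16).

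Lama1 split the visceral-endoderm-like cells by day. It ran from 4.99 to 117.7 RPM (median 38.8) in the 9 cells of E5.5 and from 0 to 0.680 RPM (median 0.397) in the 5 cells of E6.5, and the days did not overlap. Summed parietal endoderm markers had medians of 1583 RPM at E5.5 and 404.4 RPM at E6.5 in these cells, and their part in the split was not tested. Sparc, which is in that sum and also among the other basement membrane genes, alone had medians of 1441 and 400.3 RPM there. In epiblast-like cells of E5.5 the Sparc median was 140.7 RPM. All E5.5 cells carry 1 code in their titles and all E6.5 cells another, so day and code cannot be told apart. Lama1 and Lamb2 did not pass the filter on low values. In mesoderm-like cells of E6.5 (10 cells), Nid1 was at 0.21, Lama5 at 2.63 and Nid2 at 3.46 (log2). Their cluster had 4 of 8 mesoderm markers, the least that gives the name, and it also loses the name where more than 50% are required. Summed immunoglobulin RNA lay between 77.7 and 5044 RPM (median 286.6) in visceral-endoderm-like, at a median of 124.9 RPM in mesoderm-like and between 66.3 and 48950 RPM (median 925.8) in epiblast-like cells of E6.5. In E5.5 cells it was at most 3.03 RPM, and its part in the values was not tested.

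The 2 mouse cultures are 1 sample each and were not tested. Lama1 stood at 0.91 (log2) in EpiLCs, where 9 of 12 cells had no read and 1 had 358.2 RPM, against 4.48 in 2i/LIF ESCs (0.495 to 99.2 RPM). Nid1 stood at 1.79 in EpiLCs and 5.68 in 2i/LIF ESCs, and Lamc1 at 5.91 in EpiLCs and 7.46 in 2i/LIF ESCs. Lamb1, Lama5 and Nid2 were closer, at 6.00, 6.17 and 4.82 in EpiLCs and 5.67, 5.54 and 4.98 in 2i/LIF ESCs.

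**Figure D5:**
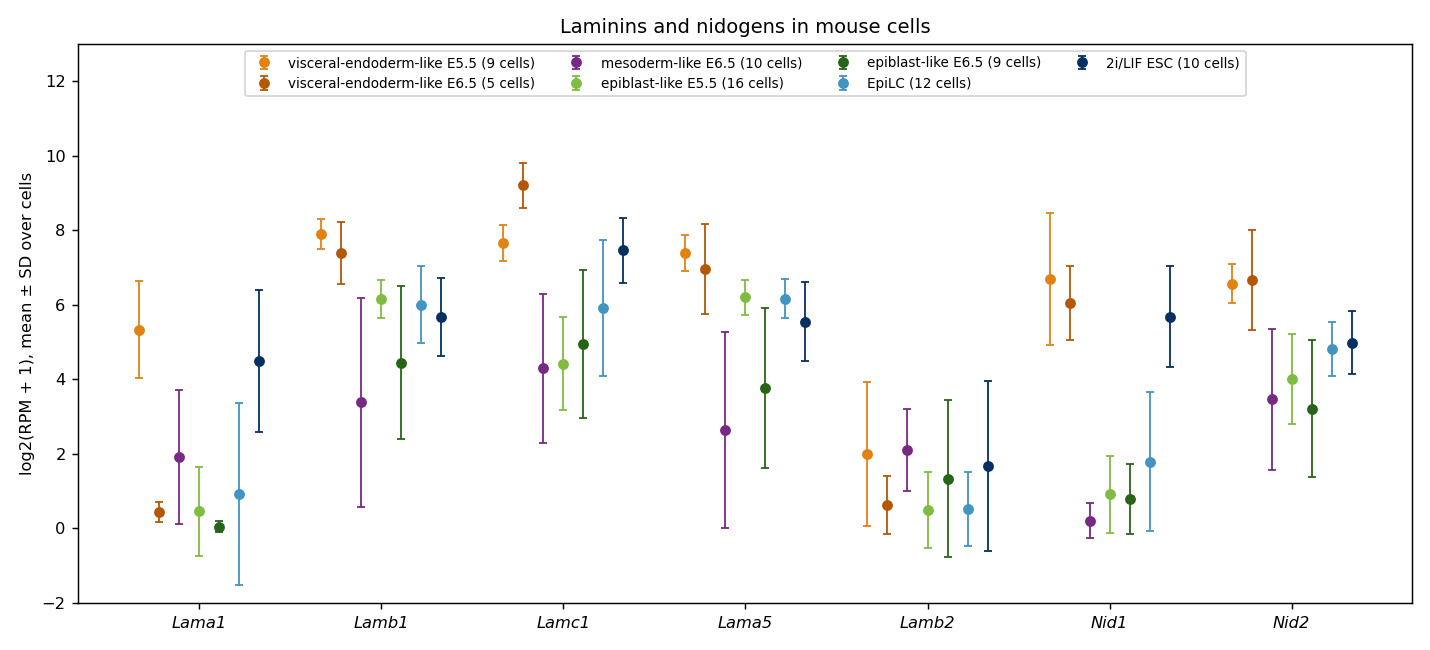
Mean log2(RPM + 1) of the genes in mouse visceral-endoderm-like, mesoderm-like and epiblast-like cells by day and in the 2 cultures, with bars for the SD over cells. Nid1 stands at 6.69 and 6.04 in the visceral-endoderm-like units and at 0.92 and 0.79 in the epiblast-like units, and Lama1 is at 5.33 in the E5.5 and 0.43 in the E6.5 visceral-endoderm-like unit.

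Over the 7 mouse units, the genes most like the mean of Lama1, Lamb1 and Lamc1, among 6113, were Mgat4b, a glycosyltransferase of the Golgi (r = 0.99), Pdia5, a protein disulfide isomerase (0.99), and Scpep1 (0.99). Sparc had r = 0.97. The highest r among so many genes over only 7 units can be high from selection alone. Over these units Lama1 had r = 0.31 with Lamb1 and 0.37 with Lamc1, and Lamb1 and Lamc1 had r = 0.75.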

How the data were processed

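SC3-seq values of 421 monkey and 71 mouse cells were analysed. The authors deposited 1 RPM value for each gene in each cell, in 1 table a species. The submitters' processing notes name Cufflinks 2.2.0, TopHat 1.4.1, cutadapt 1.3 and the build mm10, and per the file headers macFas5 is the monkey build. The labels and headers do not state how reads were assigned to genes, what was filtered or whether molecules were tagged. Values in 37 mouse columns that fit no labelled sample were left aside. RPM steps gave whole reads (within 0.1) for at least 99.6% of the values above 0.01 RPM and under 500 steps in every cell. No cells looked like 1 library deposited again (highest correlation 0.9208 in monkey, 0.8525 in mouse). No cell was removed, and no doublet caller was run.

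Embryo cells were clustered with scanpy 1.11.5, igraph 0.11.9 and leidenalg 0.10.2 (Python 3.11.15) without the 7 genes, other laminins and other basement membrane proteins. A cluster was named from at least 50% of the detected markers of a class (and at least 3) raised by at least 1 (log2) with a mean of at least 3. This rule was set after clusters and the 7 genes' cluster means had been seen and with the published classes in memory. The genes and gene lists were chosen with earlier results of these data known.

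Units of under 5 cells were left out. The least was 4 cells in the run without the late cells with hypoblast markers, and 2 cells within a title code. Genes that reached a mean of 2 in as many units as the smaller group holds were fitted with limma 3.58.1 (R 4.3.3, lmFit and eBayes with a trend), two-sided, with Benjamini-Hochberg adjustment over all tested genes and a threshold of 0.05. Unit means are of log2(RPM + 1), which understates changes of low genes. Same-day units of different classes deviated together (correlations of 0.122 to 0.4195), and days are labels they share, so the day pairs them and was also fitted as a block. Alternatives were edgeR 4.0.16 and DESeq2 1.42.0 on recovered reads, pseudocounts of 0.1 and 10, no filter, quantile normalization, the log of the mean RPM, equal cell numbers, units of at least 10 cells, another clustering resolution, title codes and leaving out each unit. The named genes are the 7, up to 4 called genes of each list with the largest difference, and the 10 genes most like the mean of LAMA1, LAMB1 and LAMC1. The limit given for a count of 0 (3 cells over the number of cells) covers only counting error.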

Additional observations from a re-analysis of the deposited data

Results flagged for a closer look

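Of 42 groups of 4 to 10 samples or cells, 6 had 1 value whose gap to its nearest neighbour took an unusually large share of the group's range; chance gives about 1 in 20 such groups. LAMB1 in gastrulating-like cells stood at 4.00 (log2) at E14, below the other 3 days, which lay at 5.81 to 5.91 (gap 0.95 of the range). In CMK6 without feeders, 1 cell had LAMA1 at 4.64 (gap 0.89), 1 cell had NID1 at 0 (0.0; gap 0.61) and 1 cell had NID2 at 5.00 (gap 0.56). In CMK9 on feeders, 1 cell had NID1 at 0.58 (gap 0.58). In mouse 2i/LIF ESCs, 1 cell had Lamb1 at 3.29 (gap 0.50).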

How the results depend on the processing

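The count of the 7 genes called kept within 1.5 times of its value for hypoblast-like against epiblast-like (5), trophectoderm-like against epiblast-like (5) and extraembryonic-mesenchyme-like against epiblast-like cells (6) under every alternative run. For hypoblast-like against trophectoderm-like cells DESeq2 called 1 in place of 3, with 2 genes given no adjusted p. For late against early epiblast, units of at least 10 cells gave 1 in place of 5, with E08 as the lone early unit, assumed to vary like the others. For ESCs against late epiblast, the count was 0 in place of 1 with edgeR, the log of the mean RPM, no filter and units of at least 10 cells (CMK6 on feeders as the lone culture), and 0 to 2 leaving out 1 unit, with 0 without CMK9 and 2 without E16. For gastrulating-like against epiblast-like cells, it was 1 with a pseudocount of 0.1 or equal cell numbers and 0 with no filter, units of at least 10 cells or without the late cells with hypoblast markers, in place of 2, and 0 to 2 leaving out 1 unit, with 0 without epiblast-like E13 or E14 or gastrulating-like E13, E16 or E17. In mouse, it was 5 with DESeq2 and with the day as a replicate block, 1 with edgeR and 0 with no filter, in place of 2, and 2 to 5 leaving out 1 unit, with 5 without epiblast-like E5.5, which leaves 1 epiblast-like unit.

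Differences that turned sign were all of values that had not passed the test. LAMA1 between hypoblast-like and trophectoderm-like cells was 0.033 with edgeR, 0.14 with the log of the mean RPM and 0.15 with equal cell numbers (-0.32 to 0.033 leaving out 1 unit). LAMA5 was -0.18 to 0.48 between hypoblast-like and epiblast-like cells leaving out 1 unit. Between trophectoderm-like and epiblast-like cells LAMA5 was 0.0008 at clustering resolution 1.5 and with naming by more than 50% of the markers, 0.48 with units of at least 10 cells, and -0.39 to 0.20 leaving out 1 unit. In late against early epiblast, NID1 was -0.25 with a pseudocount of 0.1, -0.31 with equal cell numbers and -0.40 with units of at least 10 cells, and LAMB2 was -0.038 to 0.79 leaving out 1 unit and -0.95 within the title code MS08. In ESCs against late epiblast, LAMA1 was -0.21 with edgeR and with DESeq2, -0.0078 with quantile normalization and -0.24 to 1.14 leaving out 1 unit. There LAMB2 was -0.34 with edgeR and with DESeq2, -0.31 with the log of the mean RPM, -0.044 with a pseudocount of 10, -0.37 with quantile normalization, -0.15 with equal cell numbers and -0.31 to 0.74 leaving out 1 unit. In gastrulating-like against epiblast-like cells, LAMA5 was -0.14 with equal cell numbers, -0.10 with units of at least 10 cells and -0.10 to 0.78 leaving out 1 unit, and NID1 was 0.79 with equal cell numbers. The cause was not tested.

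Over all tested genes, ESCs against late epiblast gave 461 higher and 401 lower with DESeq2 and 206 and 150 with edgeR, in place of 705 and 150, and gastrulating-like against epiblast-like cells gave 459 and 151 with DESeq2 and 161 and 34 with edgeR, in place of 116 and 132. The replicate block changed no call of the 7 genes other than those of LAMB2 in extraembryonic mesenchyme, NID2 in gastrulating-like cells and Nid2, Lamb1 and Lama5 in mouse. With 2 to 4 units a group, the number of days limits the precision.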
